A study of Mus musculus with 16 samples.

Results

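The alpha class glutathione S-transferases of mouse liver were represented by 6 of the 18209 genes with an identifier in the deposited table. Gsta1, Gsta2, Gsta3 and Gsta4 were chosen by their names, with earlier results of these data known. Gm3776 and Gm13370 were selected on their measured values, because they rose with the named genes and might share reads with them, so their levels are given as a description with no test. Bulk liver RNA was sequenced from 16 mice aged 20 days, described as male, with 4 animals in each of 4 genotypes. All 16 carried loxP-flanked alleles of Trsp, the gene of the selenocysteine tRNA (Trsp fl/fl), and the controls carried nothing further. In Trsp knockout livers (Trsp fl/fl::AlbCre), a Cre driven by the albumin promoter deletes Trsp. The paper describes this knockout as hepatocyte-specific, and which cells lost the gene was not examined here. KEAP1-substituted mice (Keap1 C226S&C613S homo::Trsp fl/fl) carried homozygous cysteine-to-serine substitutions of KEAP1 with Trsp intact in every cell. Compound mice (Keap1 C226S&C613S homo::Trsp fl/fl::AlbCre) carried both. The question of the design was whether the response of the liver to loss of selenoproteins needs these KEAP1 cysteines.

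Alpha class glutathione S-transferases are soluble enzymes, abundant in hepatocytes, that join the thiol of glutathione to electrophiles so that the product can be exported. Several members also reduce lipid hydroperoxides without selenium, and GSTA4 is known for its preference for 4-hydroxynonenal, an aldehyde made by lipid peroxidation. KEAP1 holds the transcription factor NRF2 at a low level, and oxidation or alkylation of KEAP1 cysteines lets NRF2 accumulate and switch on genes whose enhancers carry antioxidant response elements, alpha class genes among them.

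Sequence was examined first, because it decides how reads can be shared among the members. In the GENCODE M21 annotation of GRCm38, Gsta4 (chr9:78182774-78209349), Gsta1 (chr9:78230656-78242684) and Gm3776 (chr9:78257129-78269166) lie in a row on the plus strand, and Gsta2 (chr9:78331018-78355788) follows on the minus strand. Gsta3 lies apart on the plus strand at chr1:21240589-21265661. These 5 genes are annotated as protein coding, with 7 exons each in the first transcript. The Gsta1 and Gm3776 transcripts matched at 870 of 874 aligned bases (99.5%), and 62.4% of the 150-base windows of Gsta1 occurred unchanged in Gm3776, where 150 bases is the length of one sequenced read. Gsta1 and Gsta2 matched at 97.2% and shared 14.3% of those windows. A further annotated gene, Gm10639, held 3.03% of the windows of Gsta1, 18.2% of those of Gm3776 and 15.4% of those of Gsta2. Gsta1 matched Gsta3 at 75.2% and Gsta4 at 66.8% of aligned bases and shared no window with either, so that reads of Gsta3 and Gsta4 can be told apart from the rest. The 100 coding bases in which Gsta1, Gm3776 and Gsta2 differ most are shown here to let the near-identity be seen. They are coding bases 565 to 664, and the 6 positions at which the sequences are not all the same stand in capitals.
Gsta1: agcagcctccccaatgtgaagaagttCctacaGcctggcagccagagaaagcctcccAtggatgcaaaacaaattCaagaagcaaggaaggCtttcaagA
Gm3776: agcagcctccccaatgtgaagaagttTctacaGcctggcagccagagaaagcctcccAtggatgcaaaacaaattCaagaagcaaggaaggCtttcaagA
Gsta2: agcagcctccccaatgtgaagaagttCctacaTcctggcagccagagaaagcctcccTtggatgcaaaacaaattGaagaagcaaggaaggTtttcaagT
Over the whole coding sequence, Gsta1 and Gm3776 differed at 2 bases and Gsta1 and Gsta2 at 13.

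Gm13370 did not match the alpha class. It is annotated as a processed pseudogene of 1 exon at chr2:24985984-24986466 on the plus strand, and none of its 334 windows of 150 bases occurred in any other member. Its sequence was that of Rpl21, the gene of a protein of the large ribosomal subunit. It differed from the Rpl21 transcript at 2 of 483 bases, and 59 genes of the annotation, itself included, matched it at 95% or more over at least 400 bases. The pseudogene Gm10163 matched it at 100% over its 481 bases. The stretch of 100 bases that holds both differences from Rpl21 is shown, with those bases in capitals (bases 333 to 432 of the pseudogenes and of the Rpl21 coding sequence).
Gm13370: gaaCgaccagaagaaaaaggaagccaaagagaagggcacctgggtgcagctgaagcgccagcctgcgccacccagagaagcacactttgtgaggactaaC
Gm10163: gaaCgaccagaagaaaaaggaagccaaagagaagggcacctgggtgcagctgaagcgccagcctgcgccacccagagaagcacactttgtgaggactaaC
Rpl21: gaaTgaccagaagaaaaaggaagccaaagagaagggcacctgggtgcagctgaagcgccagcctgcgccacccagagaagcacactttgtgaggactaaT
The label of an alpha class member therefore held for 5 of the 6 genes, and Gm13370 is described apart from them.

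The 250 bases before a RefSeq start of transcription were held by the RefSeq promoter table (GRCm38.p6) for Gsta1, Gm3776, Gsta2 and Gsta3. These starts are not all those of the GENCODE genes above. The Gsta2 window lies inside the annotated Gsta2 gene, and the Gsta1 window runs slightly past the annotated Gsta1 start. They were printed because Gsta1, Gm3776 and Gsta2 stood high together in Trsp knockout livers and Gsta3 was not called there. Capitals mark matches, on either strand, to the core of the antioxidant response element (TGACNNNGC), to the core of the xenobiotic response element (GCGTG) or to the AP-1 site (TGANTCA).
Gsta1 promoter, chr9:78230419-78230668 (plus strand): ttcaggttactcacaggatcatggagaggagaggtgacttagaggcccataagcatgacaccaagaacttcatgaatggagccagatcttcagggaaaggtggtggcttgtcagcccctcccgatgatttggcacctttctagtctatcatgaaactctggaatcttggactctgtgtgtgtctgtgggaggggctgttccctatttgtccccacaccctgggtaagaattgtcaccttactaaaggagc
Gm3776 promoter, chr9:78256879-78257128 (plus strand): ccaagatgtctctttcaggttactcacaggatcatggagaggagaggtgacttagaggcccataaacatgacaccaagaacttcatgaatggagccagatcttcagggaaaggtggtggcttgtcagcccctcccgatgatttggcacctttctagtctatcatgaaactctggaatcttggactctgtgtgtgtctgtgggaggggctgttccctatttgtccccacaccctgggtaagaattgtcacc
Gsta2 promoter, chr9:78347146-78347395 (minus strand): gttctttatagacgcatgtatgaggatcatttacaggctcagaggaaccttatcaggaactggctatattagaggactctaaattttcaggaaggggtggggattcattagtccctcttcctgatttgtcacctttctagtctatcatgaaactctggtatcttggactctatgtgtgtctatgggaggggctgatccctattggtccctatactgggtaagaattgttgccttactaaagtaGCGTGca
Gsta3 promoter, chr1:21240335-21240584 (plus strand): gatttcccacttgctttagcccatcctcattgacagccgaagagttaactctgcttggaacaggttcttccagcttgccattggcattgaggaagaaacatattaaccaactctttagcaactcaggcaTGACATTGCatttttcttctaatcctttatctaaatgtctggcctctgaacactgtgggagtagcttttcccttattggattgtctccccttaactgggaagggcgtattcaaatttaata
The Gsta1 and Gm3776 windows start at slightly different places on the same stretch and were identical at 236 of 237 aligned bases. Gsta1 and Gsta2 were identical at 184 of 239. The antioxidant response element core occurred once, in Gsta3, at positions −121 to −113 counted from the start. The xenobiotic response element core occurred once, in Gsta2, at positions −7 to −3, and the AP-1 site in none of the 4. Among all 32851 promoters of the table, 10.2% held the first of these cores within the same 250 bases, 28.2% the second and 6.75% the AP-1 site. These are matches of letters in a short window, and enhancers farther away and other starts of transcription were not searched.

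The libraries held 11324773 to 19106210 reads over the 18209 genes with an identifier. Values below are normalized counts, which are recovered reads divided by the size factor of the library, and the deposited scale is log2 of that value plus 4. In bulk RNA, fewer hepatocytes and less RNA per hepatocyte cannot be told apart. All 10 hepatocyte markers were present, and their summed normalized count was 1.78e+06 to 2.13e+06 in control, 1.82e+06 to 2.18e+06 in Trsp knockout, 2.06e+06 to 2.40e+06 in KEAP1-substituted and 1.03e+06 to 2.00e+06 in compound livers. Albumin was the highest of them, with a mean of 20.4 on the log2 scale in controls, so this sum mostly follows albumin. Marker by marker, compound livers against controls had a median log2 fold change of −0.08, with 3 above 0 and 7 below. That median was 0.15 without replicate 1 of the compound group. Summed erythroid markers ran from 12574 to 22716 in controls, 5413 to 12689 in Trsp knockout livers, 4330 to 9163 in KEAP1-substituted livers and 5637 to 34133 in compound livers. Of the 10 hepatocyte, 5 cholangiocyte, 6 Kupffer cell, 5 endothelial, 6 stellate cell and 6 erythroid markers tested, 0 were called in either Trsp knockout comparison by limma or by voom. At an unadjusted p under 0.05 there were 4 of the 38 with unsubstituted KEAP1, all erythroid, and 5 with substituted KEAP1. The share of all tested genes under that p is not given, here or for later counts of this kind. No excess over all genes can therefore be read from such counts. Trsp itself was not analysed here. Gpx1, a selenoprotein gene, was lower with AlbCre in both KEAP1 backgrounds (log2 fold change −2.11 and −1.84, adjusted p = 6.23e-05 and 0.000434, limma), where 0.0253% and 0.101% of all tested genes were called lower. Replicate 1 of the compound group stood apart, with 28798 Xist reads where the remaining 15 libraries held 22 to 50. Its 4 Y-linked genes summed to 2 reads, where those libraries held 1830 to 3066, although the animals are described as male. For Gsta1 to Gsta4, the class sums and the gene lists, values without it are therefore given beside or after those with it.

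**Figure D1:**
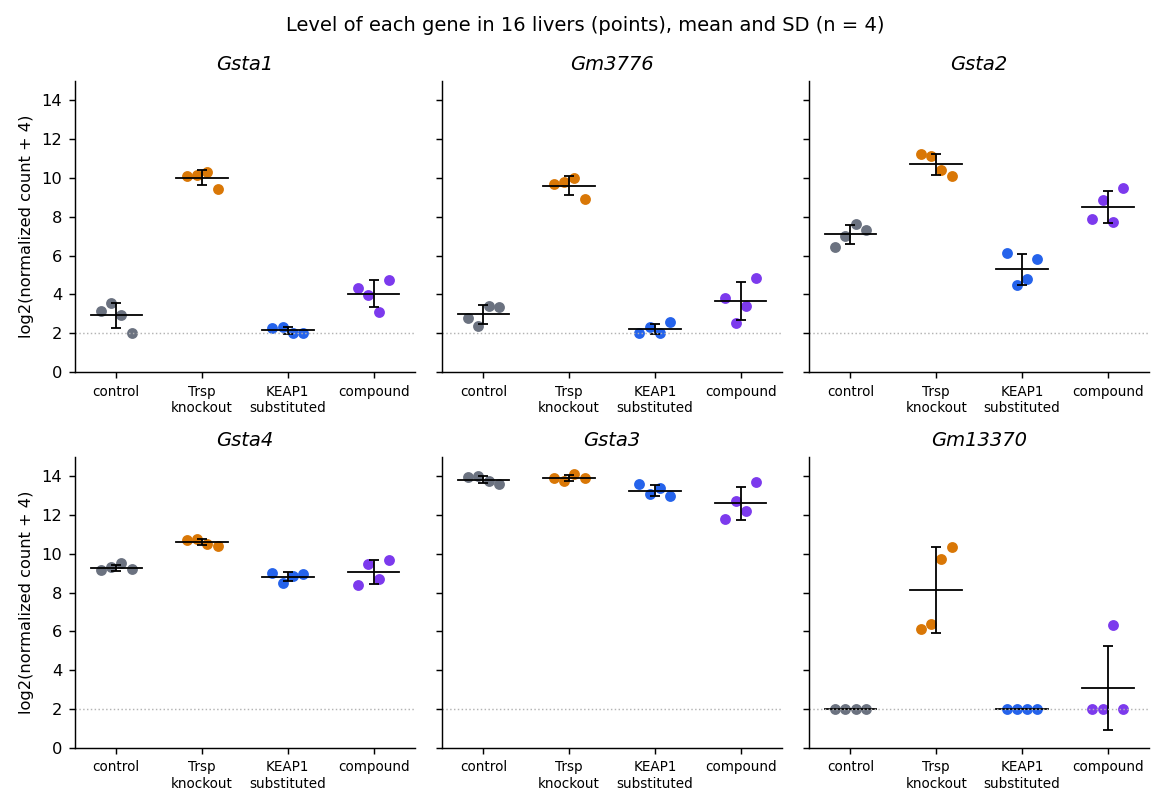
Level of the 6 genes in each of the 16 livers, as log2(normalized count + 4) on the vertical axis, by genotype on the horizontal axis (4 livers each). Points are livers, the long line is the mean, the bar is the SD, and the dotted line at 2 is a count of 0. Gsta1, Gm3776 and Gsta2 stand highest in all 4 Trsp knockout livers, while Gsta3 overlaps between controls and Trsp knockout livers.

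Gsta1 was close to absent in control livers and was the alpha class gene that differed most. Its normalized counts in controls were 4.76, 7.97, 3.75 and 0, from 5, 7, 4 and 0 reads. In Trsp knockout livers they were 1102, 1117, 1281 and 693. All 4 Trsp knockout livers lay far above all 4 controls. The summed reads per size factor were 247 times higher (95% counting interval 152 to 432). The log2 fold change was 7.09 (SE 0.36, n = 4 and 4, adjusted p = 2.71e-08, limma), on the log2(value + 4) scale, which understates the ratio of a gene so low in controls. In KEAP1-substituted livers the normalized counts were 0.87, 0.96, 0 and 0, from 1, 1, 0 and 0 reads, and in compound livers 15.9, 11.5, 4.58 and 23.0, from 17, 13, 5 and 23 reads. The compound livers lay above all 4 KEAP1-substituted livers, but the highest of them, at 23.0, was far below the lowest Trsp knockout liver, at 693. Without Trsp, the substituted KEAP1 thus went with a Gsta1 level 76.9 times lower (59.4 to 101) than the unsubstituted form, and 81.7 times lower (60.1 to 114) without replicate 1 of the compound group.

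The change of Gsta1 on deletion of Trsp within substituted KEAP1 was 1.88 on the log2 scale (SE 0.36, adjusted p = 0.0203), not past the threshold, and 1.79 without replicate 1 of the compound group (adjusted p = 0.0715). The ratio of summed reads, 58 against 2, was 30.1 (7.97 to 255), and 28.4 (7.37 to 242) without it. The 2 Trsp knockout effects differed by −5.21 (SE 0.50, adjusted p = 7.17e-05), and by −5.30 without that replicate (adjusted p = 0.000231). This test rested on the constant added before the logarithm. With a smaller constant of 1 or 0.5, or with voom on the reads, the difference was −4.79, −4.48 and −4.25, and the adjusted p rose to 0.0484, 0.235 and 0.342 (range over all 25 alternatives 4.37e-05 to 0.342). The counting intervals of the ratios, 152 to 432 and 7.97 to 255, overlapped. The lower level of Gsta1 in compound than in Trsp knockout livers, in contrast, had a log2 fold change of −5.97 (SE 0.36, adjusted p = 6.95e-08; −6.07 without replicate 1) and passed the threshold in all 26 alternatives (adjusted p 2.55e-08 to 0.000176).

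Gm3776, the predicted gene beside Gsta1, was selected because it rose with the named genes. Its likeness to Gsta1 restates that choice and is not separate support. Its normalized counts were 1.14 to 6.56 in controls, 475 to 1028 in Trsp knockout livers, 0 to 1.91 in KEAP1-substituted livers and 1.76 to 25.0 in compound livers. Summed reads were 188 times higher in Trsp knockout than in control livers, a rise that the choice of this gene rests on and that is given as description only. Since the genes differ by 4 bases along the transcript, the split of reads between them rests on few positions. Gm3776 took 42.5%, 44.3%, 44.5% and 40.7% of the reads of both in Trsp knockout replicates 1 to 4, and the exact binomial 95% intervals of the lowest and the highest share were 37.9 to 43.6% and 42.4 to 46.7%. These intervals treat each assigned read as observed in its gene. They leave out the error of dividing shared reads and are too narrow for the split itself. Adding the genes together removes the split between them, but not the sharing of reads with Gsta2 or Gm10639. The sum of Gsta1 and Gm3776 stood at 8.31 ± 1.78 in control, 1850 ± 484 in Trsp knockout, 1.17 ± 0.925 in KEAP1-substituted and 24.6 ± 17.0 in compound livers (SD, n = 4), or 24.1 ± 20.8 there without replicate 1 (n = 3).

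Gsta2 was present in every liver. Its normalized counts were 83.7, 124, 192 and 155 in controls and 2398, 2207, 1345 and 1096 in Trsp knockout livers, with no overlap. The log2 fold change was 3.61 (SE 0.43, adjusted p = 0.000323). KEAP1-substituted livers held 65.2, 18.2, 23.7 and 53.5, all below the lowest control. Compound livers held 232, 460, 212 and 712, all above the highest KEAP1-substituted liver and the highest control. Within substituted KEAP1 the change on deletion of Trsp was 3.19 (SE 0.43, adjusted p = 0.00205), and 3.39 without replicate 1 of the compound group (adjusted p = 0.00279). This call was lost in 4 of 26 alternatives (adjusted p 0.000984 to 0.0245), among them without replicate 3 of the KEAP1-substituted group (3.02, adjusted p = 0.0113), under voom (3.32, adjusted p = 0.0173) and with only the groups compared (3.19, adjusted p = 0.0245). The difference of the 2 effects was −0.42 (95% interval −1.71 to 0.87, adjusted p = 0.811). It was −0.22 without replicate 1 of the compound group (adjusted p = 0.934). The interval is wide, and the data do not show that the effects were equal. In level Gsta2 was lower in all 4 compound than in all 4 Trsp knockout livers, with a log2 fold change of −2.22 (adjusted p = 0.0124), which missed the threshold, and of −2.01 without replicate 1 (adjusted p = 0.0534). The share of all genes that separate these groups in this way is not given.

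Gsta4, the 4-hydroxynonenal enzyme, was higher by a smaller factor. Its normalized counts were 564, 625, 721 and 579 in controls and 1671, 1711, 1471 and 1370 in Trsp knockout livers. The groups did not overlap, but how many of all genes separate them in this way is not given. The log2 fold change of 1.32 (SE 0.22, 95% interval 0.84 to 1.79) had an adjusted p of 0.0101, just above the threshold of 0.01, and 0.0011 to 0.0453 over the alternatives. KEAP1-substituted livers held 506, 352, 463 and 487 and compound livers 332, 707, 417 and 820, so that those groups overlapped (0.25, SE 0.22, adjusted p = 0.691; 0.47 without replicate 1, adjusted p = 0.408). Gsta4 was lower in compound than in Trsp knockout livers, with a log2 fold change of −1.53 (SE 0.22, adjusted p = 0.00143), and was called. It was also called without replicate 1 (−1.31, adjusted p = 0.00288) and in all but 1 of the 26 alternatives (adjusted p 0.000194 to 0.0354, the highest with only the groups compared). The difference of the 2 Trsp knockout effects was −1.07 (SE 0.32, adjusted p = 0.314), and −0.84 without replicate 1 (adjusted p = 0.469).

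Gsta3, the main alpha class transcript of these livers, did not differ detectably between control and Trsp knockout livers. Its normalized counts were 15804, 16578, 13851 and 12242 in controls and 15415, 13542, 17687 and 15236 in Trsp knockout livers, and the ranges overlapped over most of their length. The log2 fold change was 0.09 (95% interval −0.54 to 0.71, adjusted p = 0.941). KEAP1-substituted livers held 12324, 8505, 10622 and 8099, of which 1 lay above the lowest control. Compound livers held 3509, 6621, 4686 and 13368, a spread wider than in any other group. The change on deletion of Trsp within substituted KEAP1 was −0.66 (SE 0.29, adjusted p = 0.339) and the change against controls −1.23 (adjusted p = 0.0727), neither past the threshold. Without replicate 1 they were −0.39 and −0.96, and without replicate 4 −1.03 and −1.60, the last with an adjusted p of 0.000968 (range over 26 alternatives 0.000968 to 0.262). Against Trsp knockout livers, Gsta3 in compound livers had a log2 fold change of −1.32 with replicate 1 and of −1.05 without it (adjusted p = 0.088).

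Within the compound group, replicate 4 was highest for each of Gsta1, Gsta2, Gsta3 and Gsta4, and replicates 1 and 3 were the lowest for Gsta2, Gsta3 and Gsta4. Albumin took 4.89%, 7.70%, 6.39% and 7.65% of the reads of replicates 1 to 4, against 7.86 to 9.36% in controls. The summed hepatocyte markers of these replicates were 1.03e+06, 1.80e+06, 1.42e+06 and 2.00e+06. The livers with lower Gsta3 were thus also those with lower albumin and a lower marker sum, which are largely the same measure. The part of this in the result was not tested. Gpx1 was low in all 4 (11.5 to 11.9 on the log2 scale, against 13.1 to 14.2 in controls).

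**Figure D2:**
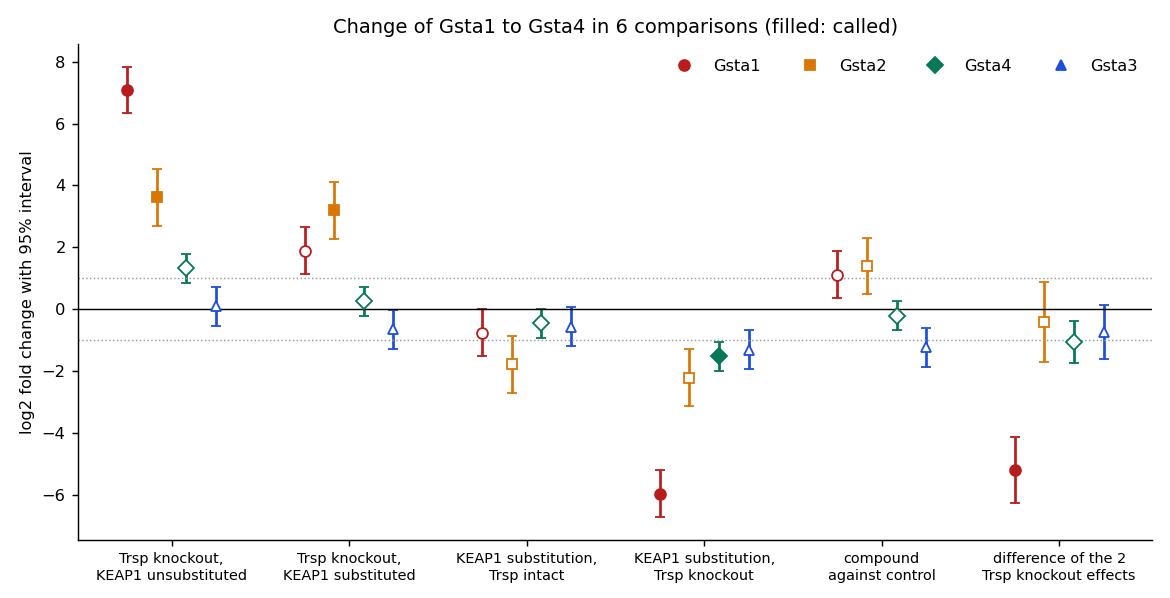
Log2 fold change (vertical axis, log2 scale) of Gsta1, Gsta2, Gsta4 and Gsta3 in the 6 comparisons on the horizontal axis, with 95% intervals from limma. Filled symbols were called, and dotted lines mark a change of 1 in either direction. Gsta1 is at 7.09 on deletion of Trsp with unsubstituted KEAP1 and at 1.88 with substituted KEAP1, and Gsta2 is at 3.61 and 3.19.

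Calling needed a log2 fold change beyond 1 in either direction with an adjusted p (Benjamini-Hochberg, 15781 genes) below 0.01. The members were chosen with earlier results of these data known. The shares of all genes given beside them are therefore background and test no excess. On deletion of Trsp with unsubstituted KEAP1, 2 of the 4 tested members (Gsta1 and Gsta2) were called higher, against 0.19% of all tested genes (30). With substituted KEAP1, 1 of 4 (Gsta2) was called higher, against 0.0697% (11). In Trsp knockout livers, 2 of 4 (Gsta1 and Gsta4) were called lower with the KEAP1 substitution, against 0.456% (72), and all 4 log2 fold changes were negative (−5.97, −2.22, −1.32 and −1.53 for Gsta1 to Gsta4). For the difference of the 2 Trsp knockout effects, 1 of 4 (Gsta1) was called lower, against 0.0253% (4). Without replicate 1 of the compound group the same members were called in these last 3 comparisons, and 0.0697% of all genes were called higher in the first of them (11), 0.304% lower in the next (48) and 0.0317% lower in the last (5).

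The KEAP1 substitution with Trsp intact gave smaller differences in the same direction. The log2 fold changes of Gsta1 to Gsta4 were −0.77, −1.79, −0.57 and −0.47, with adjusted p of 0.546, 0.163, 0.587 and 0.553. None of the 4 was called by limma, 2 had an unadjusted p under 0.05, and voom on the reads called 0; 0.00634% of all genes (1) were called lower. The highest KEAP1-substituted livers held 65.2 for Gsta2 and 506 for Gsta4, and the lowest controls 83.7 and 564. How many of all genes separate the groups in this way is not given, here or for the groups without overlap above. No difference is therefore read from such separation alone. Compound livers against controls gave 1.11, 1.40, −1.23 and −0.22 for Gsta1 to Gsta4, with adjusted p of 0.184, 0.162, 0.0727 and 0.747. None was called by limma or by voom, 3 had an unadjusted p under 0.05, and 0.057% of all genes were called higher and 0.076% lower. Without replicate 1 of the compound group the values were 1.02, 1.60, −0.96 and 0.01. These comparisons share control or mutant livers and are not independent of each other.

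Levels of different genes were compared per kilobase of transcript. In controls, Gsta3 stood at 10033 ± 1343 normalized counts per kb, Gsta4 at 637 ± 72.2, Gsta2 at 160 ± 53.0, Gm3776 at 4.80 ± 3.02 and Gsta1 at 4.71 ± 3.75 (SD, n = 4). Gm3776 and Gsta1 did not differ beyond their spread, and the other steps exceeded it. In Trsp knockout livers the order was Gsta3 at 10618 ± 1168, Gsta2 at 2025 ± 733, Gsta4 at 1592 ± 166, Gsta1 at 1198 ± 286 and Gm3776 at 917 ± 269, in which neighbours below Gsta3 overlapped in their ranges. The order of KEAP1-substituted livers was Gsta3 at 6786 ± 1349, Gsta4 at 462 ± 70.6 and Gsta2 at 46.2 ± 26.2, with Gm3776 at 0.821 ± 1.05 and Gsta1 at 0.523 ± 0.605, which overlapped. Compound livers held Gsta3 at 4836 ± 3024, Gsta4 at 582 ± 238 and Gsta2 at 464 ± 269, of which the last pair overlapped, then Gsta1 at 15.7 ± 8.84 and Gm3776 at 12.4 ± 11.5.

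**Figure D3:**
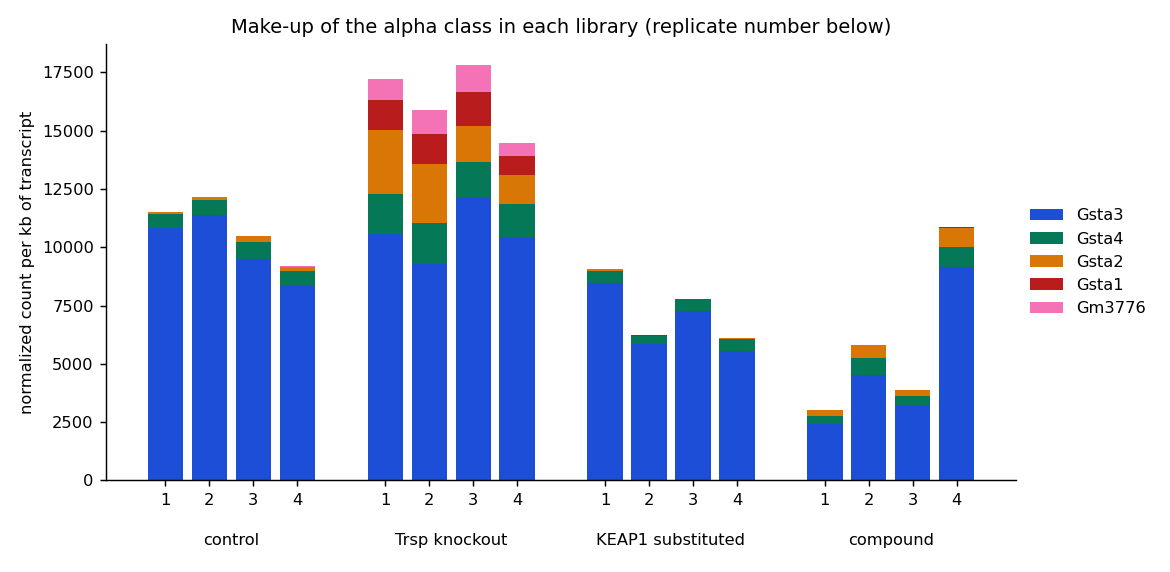
Make-up of the alpha class in each library, as normalized count per kb of transcript (vertical axis, stacked from 0) for 5 genes, by genotype and replicate number on the horizontal axis. Gsta3 is the tallest part of every bar, and Gsta1 and Gm3776 are visible parts in the 4 Trsp knockout livers only (7.26% and 5.54% of the class on average).

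The sum of the 5 genes was 10840 ± 1308 per kb in controls, 16350 ± 1505 in Trsp knockout, 7296 ± 1399 in KEAP1-substituted and 5911 ± 3514 in compound livers, or 6866 ± 3612 in the last without replicate 1 (n = 3). All 4 Trsp knockout sums (14455 to 17831) lay above all control sums (9181 to 12170). Gsta3 made up 92.5% ± 1.59 of the class in controls, 65.1% ± 6.28 in Trsp knockout, 92.9% ± 1.41 in KEAP1-substituted and 81.0% ± 2.86 in compound livers (SD, n = 4; 81.6% ± 3.13 without replicate 1). The share of Gsta2 was 1.52%, 12.3%, 0.630% and 7.91% in the same order, the last 7.62% without replicate 1. These levels depend on the transcript assumed. With the second coding transcript of Gsta3, of 894 bases in place of 1457, Gsta3 in controls stood at 16352 per kb and its shares were 95.2%, 75.1%, 95.5% and 87.4%.

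Reads listed under Gm13370 were 0 in all 4 control and all 4 KEAP1-substituted livers. Trsp knockout livers held 64, 61, 786 and 1322 reads and compound livers 0, 0, 83 and 0. Taking 3 reads over the group as the floor of a count of 0, Trsp knockout livers were at least 765-fold higher than controls by this row alone, and at least 430-fold without replicate 4. Gm13370 was selected because it rose, so these bounds restate that choice and are no support for it. Replicates 1 and 2, at 64.8 and 80.0 normalized counts, were far below replicates 3 and 4, at 843 and 1301, and the level was at least 1013-fold higher without replicate 1. Gm10163, which has the same sequence, held 425, 405, 0 and 0 reads in those 4 Trsp knockout livers, and 343 to 596 in the other 12. The livers with many Gm13370 reads were thus the livers with no Gm10163 reads. Together the pair held 495, 611, 843 and 1301 normalized counts in Trsp knockout livers, against 447 to 559 in controls. Summed over the 7 genes of the table that match Gm13370, among them Rpl21, the level was 2559 ± 179 in control, 2836 ± 376 in Trsp knockout, 2332 ± 360 in KEAP1-substituted and 2610 ± 246 in compound livers (SD, n = 4), and the first 2 groups overlapped (2395 to 2747 and 2587 to 3393). The match covers 483 bases, while the matching transcripts of Rpl21 and BC004004, also in the sum, have 1067 and 13859. This sum can therefore hold reads from outside the matching stretch. In the pair alone, Trsp knockout replicates 2 to 4 lay above all controls.

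**Figure D4:**
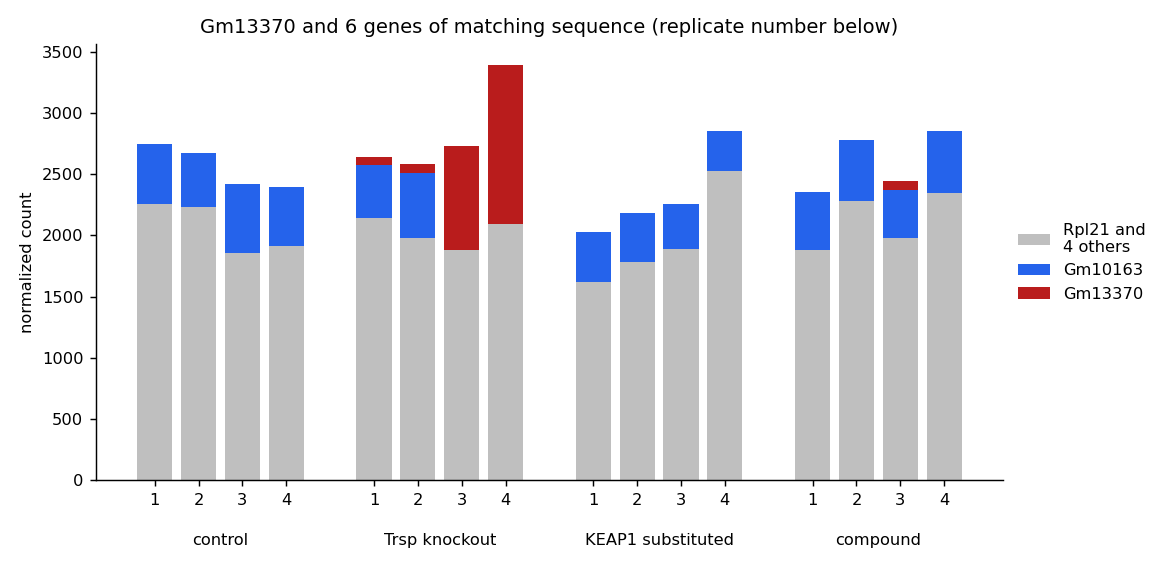
Normalized counts (vertical axis, stacked from 0) of Gm13370, Gm10163 and the other 5 genes of matching sequence, Rpl21 with 4 others, in each library by genotype and replicate number. Gm13370 is a large part of the bar in Trsp knockout replicates 3 and 4, where Gm10163 is at 0, while the full bars of controls and Trsp knockout livers overlap (2395 to 2747 and 2587 to 3393). The full bars can hold reads from outside the matching stretch.

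Genes that act beside the alpha class were counted by lists. Of the 19 other glutathione S-transferases tested, 4 were called higher on deletion of Trsp with unsubstituted KEAP1 by limma (3 genes called by voom) and 0 lower, with a median log2 fold change of 0.64 against −0.01 over all genes tested. They were Gstm3 (2.91, adjusted p = 0.00157), Gstp2 (2.18, adjusted p = 0.00061), Gstp1 (2.07, adjusted p = 5.89e-05) and Gstm1 (1.96, adjusted p = 0.0033), which are mu and pi class conjugating enzymes. With substituted KEAP1, 0 of 19 were called by limma or by voom, 5 had an unadjusted p under 0.05, and the median was −0.16. The lowest p there was that of Gstt2 (1.05, adjusted p = 0.0785). In Trsp knockout livers, 9 of the 19 were called lower with the KEAP1 substitution (9 genes called by voom, and 8 by limma without replicate 1 of the compound group), with a median of −1.20 against 0.01, led by Gstm3 (−5.86, adjusted p = 4.37e-07). On the log2 scale Gstm3 had a mean level of 10.2 in controls, 13.1 in Trsp knockout, 7.91 in KEAP1-substituted and 7.28 in compound livers. The corresponding levels of Gsta2 were 7.10, 10.7, 5.31 and 8.49.

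**Figure D5:**
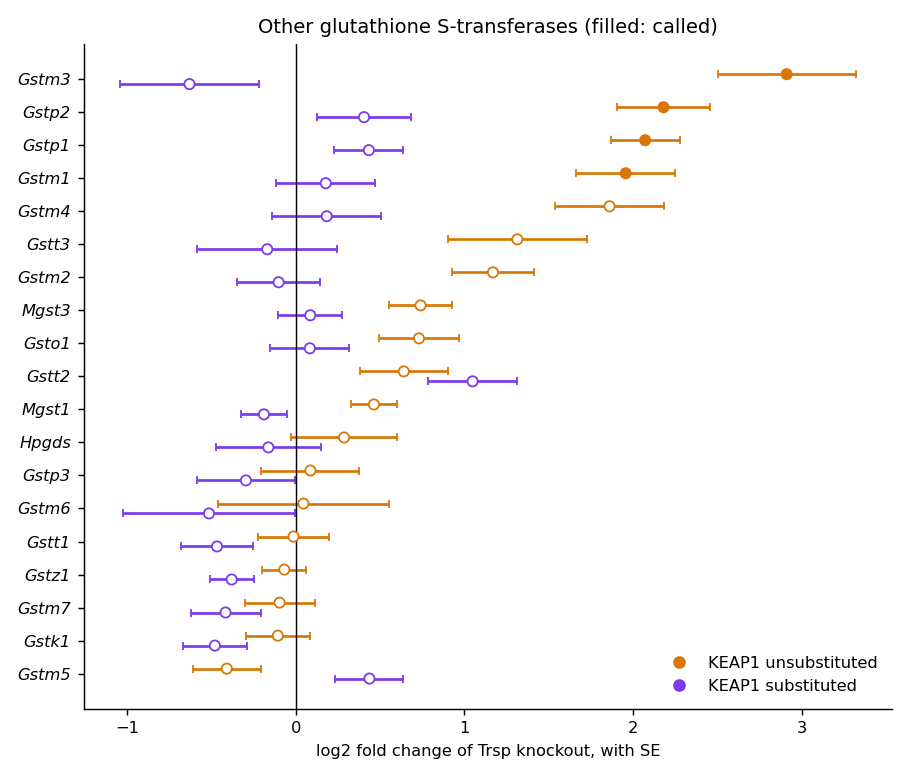
Log2 fold change on deletion of Trsp (horizontal axis, log2 scale, bars are SE from limma) for the 19 other glutathione S-transferases tested, with unsubstituted and with substituted KEAP1. Filled points were called. Gstm3, Gstp2, Gstp1 and Gstm1 are called with unsubstituted KEAP1 (1.96 to 2.91), and none with substituted KEAP1.

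Glutathione synthesis and recycling showed no called gene in either background (0 of 11 tested by limma or by voom, 4 at an unadjusted p under 0.05 in each), with medians of 0.31 and 0.01. Gsr, which returns oxidized glutathione to its reduced form, had the lowest p in both (0.70, adjusted p = 0.0273, and 0.50, adjusted p = 0.107). Of the 15 tested genes of conjugate export and mercapturate formation, 1 was called higher with unsubstituted KEAP1, the exporter Abcc4 (2.42, adjusted p = 5.12e-05), and 0 with substituted KEAP1 by limma or by voom (3 at an unadjusted p under 0.05; Abcc4 1.04, adjusted p = 0.0541). The medians were 0.18 and −0.04. Among 21 enzymes of lipid aldehyde disposal, 3 were called higher with unsubstituted KEAP1 (2 by voom), namely the carbonyl reductases Cbr3 (3.64, adjusted p = 0.000313) and Cbr1 (1.53, adjusted p = 0.00061) and the epoxide hydrolase Ephx1 (2.20, adjusted p = 0.000447), and 0 with substituted KEAP1 by limma or by voom (7 at an unadjusted p under 0.05; Ephx1 1.41, adjusted p = 0.0208). Ephx1 was called there without replicate 1 of the compound group (1.64, adjusted p = 0.00954). The medians were 0.38 and −0.11. Of 6 glutathione peroxidases, 1 was called lower in each background, Gpx1 in both (medians −0.26 and 0.25).

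Targets of the xenobiotic receptors, which also regulate alpha class genes in liver, held no called gene among 17 in either background by limma or by voom (2 and 3 at an unadjusted p under 0.05, medians 0.11 and −0.53). The lowest p was that of Sult1e1 with unsubstituted KEAP1 (2.59, adjusted p = 0.307) and of Cyp2c37 with substituted KEAP1 (−1.32, adjusted p = 0.0672). Of the 27 tested genes of a reference list of NRF2 targets, which shares genes with the lists above, 11 were called higher with unsubstituted KEAP1 (9 genes called by voom; median 1.17) and 3 with substituted KEAP1 (2 by voom; median 0.18). The 4 with the greatest change in the first were Cbr3, Gstm3, Aox1 (2.44, adjusted p = 0.000139) and Abcc4. The 3 of the second were Aox1 (1.73, adjusted p = 0.00562), the UDP-glucose dehydrogenase Ugdh (1.41, adjusted p = 0.00629) and Pir (1.01, adjusted p = 0.00263). Without replicate 1 of the compound group 2 were called, Pir (1.11, adjusted p = 0.00168) and Ephx1, while Aox1 (1.79, adjusted p = 0.0132) and Ugdh (1.41, adjusted p = 0.0199) missed the threshold.

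For the difference of the 2 Trsp knockout effects itself, 0 genes of these lists were called by limma, by voom or without replicate 1 of the compound group. At an unadjusted p under 0.05 there were 10 of the 19 other glutathione S-transferases, 12 of the 27 NRF2 targets, 9 of the 21 lipid aldehyde genes, 6 of the 15 export genes, 3 of the 11 glutathione genes, 3 of the 17 xenobiotic receptor targets and 0 of the 6 peroxidases. The share of all tested genes under that p is not given, so no excess is read from these counts. Below 0 lay 17 of the 19 other glutathione S-transferases (median −0.65 against 0.00 over all genes, and −0.46 without replicate 1). So did 22 of the 27 NRF2 targets (−0.67, −0.56), 17 of the 21 lipid aldehyde genes (−0.52, −0.32) and 13 of the 17 xenobiotic targets (−0.57, −0.38). Export genes had 9 of 15 there (−0.29, −0.12), glutathione genes 9 of 11 (−0.19, −0.11) and peroxidases 1 of 6 (0.39, 0.38). Lists as a whole were not tested, so more calls in one KEAP1 background do not show a different response. Without replicate 1 the medians with substituted KEAP1 were −0.01 for the other glutathione S-transferases, 0.09 for glutathione synthesis, 0.03 for export, 0.00 for lipid aldehyde disposal, 0.14 for peroxidases, −0.29 for xenobiotic receptor targets and 0.34 for NRF2 targets.

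The genes whose pattern over the 16 libraries was nearest to each member were found by the root mean square difference of log2 values, each gene centred on its own mean. For Gsta1 they were 9130409I23Rik (1.51), Gm49668 (1.60) and Cbr3 (1.62), against a median of 3.15 over all genes. For Gsta2 they were 9130409I23Rik (0.92), the aldehyde oxidase Aox1 (0.93) and Ephx1 (0.98), against a median of 2.09. Gsta4 was nearest to Thnsl2 (0.21), Cbr1 (0.30) and Ugt1a6b (0.31), with a median of 0.82. Gsta3 was nearest to the catalase gene Cat (0.21), the aldehyde oxidase Aox3 (0.22) and Car8 (0.23), with a median of 0.73. Each value is a description over 16 libraries that share their genotype groups.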

How the data were processed

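Liver total RNA of 16 mice was depleted of rRNA, made into directional libraries and sequenced as paired reads of 150 bases. Per the study's methods the authors quantified the reads with Salmon 1.5.1+galaxy0 against GENCODE mouse transcripts version 30 and analysed them in iDEP. The deposited log2 values were found to equal log2(count divided by a size factor, plus 4): every low value (up to 20 reads) came back as a whole number within 0.1. The recovered totals over the rows with a gene identifier were 11324773 to 19106210 per library. How Salmon's estimates became whole numbers is not given in the sources used here. Of 18578 rows, 369 without a gene identifier (0.274 to 0.627% of reads) were left out of tests.

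The 15781 genes that reached a normalized count of 10 in 4 or more libraries were tested with limma 3.58.1 in R 4.3.3 (lmFit, contrasts and eBayes with trend on the log2 values, 1 fit over 16 libraries with a mean per genotype). The fit returned known changes in simulated data. Those changes were smaller than that of Gsta1 and lay in genes well expressed in controls, so a case like Gsta1 was not simulated. Calls needed a log2 fold change beyond 1 and an adjusted p under 0.01. Gm3776 and Gm13370 got no test between groups. Members and gene lists were chosen with earlier results of these data known. Named list genes were those called (at most 4 per list, by size), otherwise the one with the lowest p, and 3 nearest genes per member. Gm10163, and Gstm3 outside the Trsp knockout comparisons, were named after their values were seen. Transcript identity was measured with blastn 2.17.0 and Biopython 1.88 on GENCODE M21 (GRCm38), which is not the authors' release, and lengths come from the same source. Lists, read ratios and class sums without compound replicate 1, and the Gm13370 bound without single libraries, were added after the data were seen. Groups were taken from sample titles. The labels name separate animals' livers only by replicate number, so p-values measure the spread between these samples. Counting intervals are exact 95% intervals and cover counting error only, not the error of assigning reads shared between genes.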

Additional observations from a re-analysis of the deposited data

Results flagged for a closer look

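Gm13370 was flagged because 1 compound liver, replicate 3, lay far from the other 3 of its group, at 6.3225 on the log2 scale (83 reads) against 2 (0 reads). Since those 3 were all at 0, any liver with reads would have stood out in this way. Of 22 groups of 4 libraries examined over the members, 1 was flagged, where about 1.1 would be by chance (1 in 20). The same liver held 425 Gm10163 reads, within the 343 to 596 of the other libraries in which that gene was above 0.

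Gsta1 was flagged because its Trsp knockout effect differed between the KEAP1 backgrounds, by −5.20625 on the log2 scale in the test of the difference itself (adjusted p = 7.17e-05, limma). The effect was 7.09 with unsubstituted and 1.88 with substituted KEAP1. All 4 Trsp knockout livers lay above all 4 controls, and all 4 compound livers above all 4 KEAP1-substituted livers. KEAP1-substituted livers held 2 Gsta1 reads in all, so the size of the effect there depends on the constant added before the logarithm.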

How the results depend on the processing

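Calls were counted among Gsta1, Gsta2, Gsta3 and Gsta4 under each alternative, and calls over all genes tested are given beside them. With substituted KEAP1 the count of 1 on deletion of Trsp became 0 under voom, with only the groups compared and with the replicate block, and 2 at an adjusted p under 0.05, while calls over all genes went from 27 to 20, 20, 14 and 75. For the KEAP1 substitution in Trsp knockout livers the count of 2 became 1 with only the groups compared (Gsta1) and 4 at an adjusted p under 0.05, over all genes from 90 to 46 and 189. The count of 1 for the difference of the 2 Trsp knockout effects became 0 with a constant of 1, a constant of 0.5 and voom, over all genes from 9 to 7, 5 and 5; with only the groups compared it could not be fitted. For voom and the groups compared the cause was not tested. Leaving out 1 library gave 2 to 3 on deletion of Trsp with unsubstituted KEAP1, 0 to 2 with substituted KEAP1 (0 without KEAP1-substituted replicate 3, with 14 over all genes, and 2 without compound replicate 3, with 19), 2 to 4 for the substitution in Trsp knockout livers (4 without compound replicate 4, with 178 over all genes, and 58 over all genes without compound replicate 1) and 0 to 1 for compound livers against controls (1, Gsta3, without compound replicate 4, with 70 over all genes where 21 were called with it). Gsta4 in compound livers against controls changed sign without compound replicate 1, from −0.22 to 0.00842 (adjusted p = 0.995), and ranged down to −0.423 without replicate 4. Gsta4 was also called on deletion of Trsp with unsubstituted KEAP1, making 3, at a minimum count of 50, with quantile normalization, scaling by library totals or only the groups compared, and without compound replicate 1, 2 or 4. Scaling by library totals moved the median log2 fold change of all genes from near 0 to between 0.11 and 0.13 in comparisons that involve compound livers. Neither the labels nor the methods tie the replicate numbers to a litter or a day, and same-numbered libraries deviated together with correlations of −0.32 to 0.16 between groups, so the replicate block (0 calls with substituted KEAP1, Gsta2 at an adjusted p of 0.0109) is given only as an alternative. Adding the reads of Gsta1, Gm3776, Gsta2 and Gm13370 changed the Gsta1 value of 7.09 to 4.84, and adding Gm3776 alone, chosen after seeing the data, to 7.20. Gsta1 and Gm3776 rest on 0 to 7 reads per library without Trsp deletion, so levels there are limited by depth.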
